A study of Homo sapiens with 6 samples.

Results

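Antisense-named RNAs are transcripts whose gene symbol ends in -AS and a number, after the gene on the opposite strand that they were named for. A total of 281 of the 746 such names in the count table had a mean of at least 1 CPM (read counts scaled to a common library total) over the 6 libraries and make up the set described here, out of 27394 gene names in all. The set was thus chosen by name and by mean CPM. EPB41L4A-AS1 was left out by the rule, and 464 names lay below the limit. The limit used the level averaged over both groups and not the difference between them. Just inside it were CEBPB-AS1 at 1.01 CPM, DDN-AS1 at 1.03 CPM and ZFHX2-AS1 at 1.04 CPM, and just outside it ADD3-AS1 at 0.994 CPM, RDH10-AS1 at 0.99 CPM and EIF1B-AS1 at 0.973 CPM.

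The cells were Huh7, an established human hepatocellular carcinoma line grown in DMEM with fetal bovine serum. RNA-seq libraries came from 3 samples with a short hairpin RNA (shRNA) against CTSV, the gene of the lysosomal protease cathepsin V, and 3 samples with a control shRNA, whose genotype the labels give as WT. The labels call both knockdown and control established cell lines made with shRNA. No source used here gives the shRNA sequences or says that samples of a group came from separate cultures, so p-values measure only how far these libraries differ, and that spread may be technical. The series design gives the aim as following what CTSV does in liver cancer.

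A long noncoding RNA on the strand opposite to a gene can start beside that gene's promoter and run away from it, or start elsewhere and run across its exons or introns. Some antisense transcripts act on the neighbouring gene in cis, some act elsewhere or through the act of being transcribed, and for many no role is known. Many promoters of protein-coding genes fire in both directions, and the nuclear RNA exosome removes much of the upstream product unless it is spliced and polyadenylated. These transcripts are usually spliced less efficiently and found at lower levels than messenger RNAs.

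A sense partner was found for 272 of the 281 RNAs by the symbol before -AS, and each of these lay on the same chromosome and the opposite strand. For 9, among them TP73-AS1, HOXA-AS2 and HOXC-AS1, none was found. By the table's hg38 coordinates, 136 were divergent, meaning that the 5′ ends of the RNA and its partner lay within 2000 bases, with a median distance of 378.5 bases. In 85 of these the gene spans shared bases and in 51 they did not. The other 136 overlapped their partner with 5′ ends farther apart, at a median of 51074 bases. GENCODE v29 classed 193 as antisense, 39 as processed transcripts and 38 as lincRNA. It classed NCBP2-AS2 as protein coding. The RNAs lay on both strands, 145 on plus and 136 on minus.

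The start regions of 6 of them are shown because they belong to the divergent pairs whose genes changed together or apart, and to the RNA of the set with the smallest adjusted p. Each is the RefSeq window on GRCh38.p14 from 250 bases before to 50 after the annotated start, 5′ to 3′ on the RNA's own strand. In the first group the single capital is the annotated start. SATB1-AS1 lies at chr3:18444987-18445286 on the plus strand, GATA6-AS1 at chr18:22168919-22169218 on the minus strand, TGFB2-AS1 at chr1:218345629-218345928 on the minus strand and PSMA3-AS1 at chr14:58298088-58298387 on the minus strand.
SATB1-AS1: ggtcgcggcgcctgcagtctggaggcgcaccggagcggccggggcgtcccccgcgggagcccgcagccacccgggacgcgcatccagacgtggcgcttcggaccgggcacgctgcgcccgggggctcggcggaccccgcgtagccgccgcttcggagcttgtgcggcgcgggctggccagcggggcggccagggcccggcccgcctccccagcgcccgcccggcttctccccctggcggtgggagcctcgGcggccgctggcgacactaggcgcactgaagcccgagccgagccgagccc
GATA6-AS1: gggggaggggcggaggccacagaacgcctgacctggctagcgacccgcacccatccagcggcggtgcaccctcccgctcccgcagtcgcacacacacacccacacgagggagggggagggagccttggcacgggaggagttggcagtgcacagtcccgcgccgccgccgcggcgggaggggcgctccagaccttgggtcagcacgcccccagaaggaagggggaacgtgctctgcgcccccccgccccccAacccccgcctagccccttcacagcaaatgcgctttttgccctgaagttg
TGFB2-AS1: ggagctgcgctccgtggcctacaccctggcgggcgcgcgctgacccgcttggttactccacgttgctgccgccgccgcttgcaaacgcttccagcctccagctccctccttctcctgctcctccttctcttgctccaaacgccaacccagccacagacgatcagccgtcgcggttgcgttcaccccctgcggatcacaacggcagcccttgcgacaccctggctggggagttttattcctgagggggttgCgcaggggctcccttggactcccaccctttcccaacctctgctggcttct
PSMA3-AS1: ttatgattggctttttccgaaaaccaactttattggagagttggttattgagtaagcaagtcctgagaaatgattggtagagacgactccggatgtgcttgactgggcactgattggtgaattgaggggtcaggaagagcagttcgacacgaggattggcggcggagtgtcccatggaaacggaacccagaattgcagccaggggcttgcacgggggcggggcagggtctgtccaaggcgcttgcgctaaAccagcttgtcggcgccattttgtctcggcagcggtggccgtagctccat

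In the next pair of windows the capitals run from the RefSeq start of the sense gene, on the opposite strand, to that of the antisense RNA, both starts included. TPT1-AS1 lies at chr13:45341095-45341394 on the plus strand and has 163 capitals. TRIM52-AS1 lies at chr5:181260962-181261261 on the plus strand and has 70 capitals. One stretch of DNA thus holds both annotated starts in each of these pairs.
TPT1-AS1: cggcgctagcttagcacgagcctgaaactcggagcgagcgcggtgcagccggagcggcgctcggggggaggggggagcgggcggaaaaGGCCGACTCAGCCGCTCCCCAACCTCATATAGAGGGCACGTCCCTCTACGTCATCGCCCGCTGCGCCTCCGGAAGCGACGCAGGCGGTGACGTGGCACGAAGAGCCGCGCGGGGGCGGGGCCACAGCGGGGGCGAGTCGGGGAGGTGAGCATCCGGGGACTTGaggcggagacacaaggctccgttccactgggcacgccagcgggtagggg
TRIM52-AS1: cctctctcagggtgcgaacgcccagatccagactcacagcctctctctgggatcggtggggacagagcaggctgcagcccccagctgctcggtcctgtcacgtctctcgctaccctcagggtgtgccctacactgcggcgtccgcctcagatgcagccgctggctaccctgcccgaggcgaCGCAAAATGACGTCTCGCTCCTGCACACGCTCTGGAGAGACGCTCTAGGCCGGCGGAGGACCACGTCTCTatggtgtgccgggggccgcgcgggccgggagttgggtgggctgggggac

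The 3 libraries with the CTSV shRNA held 16280506 to 17930442 counts and the 3 with the control shRNA 16258803 to 18106207. CTSV itself was at 18.39, 15.996 and 16.28 CPM with the CTSV shRNA and 42.3, 44.5 and 41.0 CPM with the control shRNA (log2 fold change -1.34, SE 0.0958). The 9 hepatocyte and hepatoma markers were each above 1 CPM. Their summed level was 42291 to 43430 CPM in the CTSV shRNA libraries and 34497 to 35247 CPM in the controls. Among them GPC3 (log2 fold change 0.57), TF (0.54), AFP (0.44), SERPINA1 (0.35), ALB (0.22) and APOB (0.20) rose at an edgeR adjusted p under 0.05. TTR (-0.19) fell at that limit, and APOA1 (0.05) and FGB (0.0007) did not reach it. Of 6 fibroblast and stellate markers, 5 were measured, and their sum was 61.6 to 69.0 CPM with the CTSV shRNA and 46.4 to 52.6 CPM with the control shRNA. In this sum COL1A2 averaged 19.1 ± 1.68 CPM with the CTSV shRNA and 9.43 ± 0.711 CPM with the control shRNA (SD, n = 3 each; log2 fold change 1.02, edgeR adjusted p = 4.6e-08). LUM held 41.5 ± 3.15 CPM with the CTSV shRNA and 36.0 ± 1.76 CPM with the control shRNA (log2 fold change 0.21), while COL1A1 was below 1 CPM in both. COL3A1 (0.22) and PDGFRB (-0.51) did not reach an edgeR adjusted p under 0.05, and the groups overlapped in both genes. The part of these genes in the results below was not tested. The endothelial markers PECAM1 and STAB2 summed to 19.6 to 21.8 CPM with the CTSV shRNA and 18.1 to 23.5 CPM with the control shRNA, and the leukocyte markers CD14 and CD3E to 1.87 to 3.15 CPM with the CTSV shRNA and 2.19 to 3.19 CPM with the control shRNA. No counts were available here for DCN of the fibroblast list, VWF, CDH5 and KDR of the endothelial list, or PTPRC, CD68 and MS4A1 of the leukocyte list. Mitochondrially encoded genes held 112745 to 116832 CPM with the CTSV shRNA and 92119 to 97193 CPM with the control shRNA, and their part in the results below was not tested.

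More antisense-named RNAs rose than fell with the CTSV shRNA. Together they held 2975, 2950 and 2949 CPM in the CTSV shRNA libraries, against 2530, 2527 and 2483 CPM in the control libraries, a ratio of 1.18. Each CTSV shRNA library lay above each control. By raw counts the set took 0.299% to 0.301% of a CTSV shRNA library and 0.245% to 0.249% of a control library. The 10 RNAs of highest level made up 41.4% of the sum. These 10 had a ratio of 1.10, with 1187 ± 10.6 CPM with the CTSV shRNA and 1080 ± 18.2 CPM with the control shRNA. The remaining RNAs had a ratio of 1.24, with 1771 ± 24.7 CPM for the CTSV shRNA and 1434 ± 18.1 CPM for the control shRNA (SD, n = 3 each). In bulk RNA fewer cells of a kind and less RNA per cell cannot be told apart, and all levels are shares of a library.

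All 281 passed the low-count filter and were tested. A total of 75 rose and 9 fell (edgeR's quasi-likelihood test, Benjamini-Hochberg adjusted p under 0.05), and 197 were not called. Among all 15968 tested genes 18.7% rose and 21.6% fell, 40.3% in all, and among those with a mean of at least 1 CPM, as the rule requires, 19.7% rose and 23.8% fell, 43.5% in all. The share of the set that rose was 26.7% and the share that fell 3.2%. At least 2-fold changes were found in 16 that rose and 3 that fell, and over all tested genes in 4.23% and 0.958%. The median log2 fold change of the set was 0.36, or 1.28-fold, with 222 values above 0, against a median of 0.02 for all tested genes. That antisense genes more often rose than fell was known from earlier work on these libraries when the set was chosen, so these counts are a description.

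A mean of at least 1 CPM in both groups was reached by 254 of the 281, of which 68 rose and 9 fell. The 25 that reached it with the CTSV shRNA and not with the control shRNA had to differ in that direction, and 7 of them were called. The set of 209 RNAs named LINC, for long intergenic noncoding, with a mean of at least 1 CPM had similar counts, 59 higher (28.2%) and 6 lower (2.87%), with a median log2 fold change of 0.32. The protein-coding genes above that level had 19.0% higher and 27.3% lower, and a median of -0.04. Correcting counts for transcript length and GC content left 58 antisense-named RNAs higher and 10 lower. The same correction changed the split over all tested genes from 2982 higher and 3451 lower to 2231 higher and 4744 lower, and moved the median of all tested genes by -0.09 on the log2 scale.

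**Figure D1:**
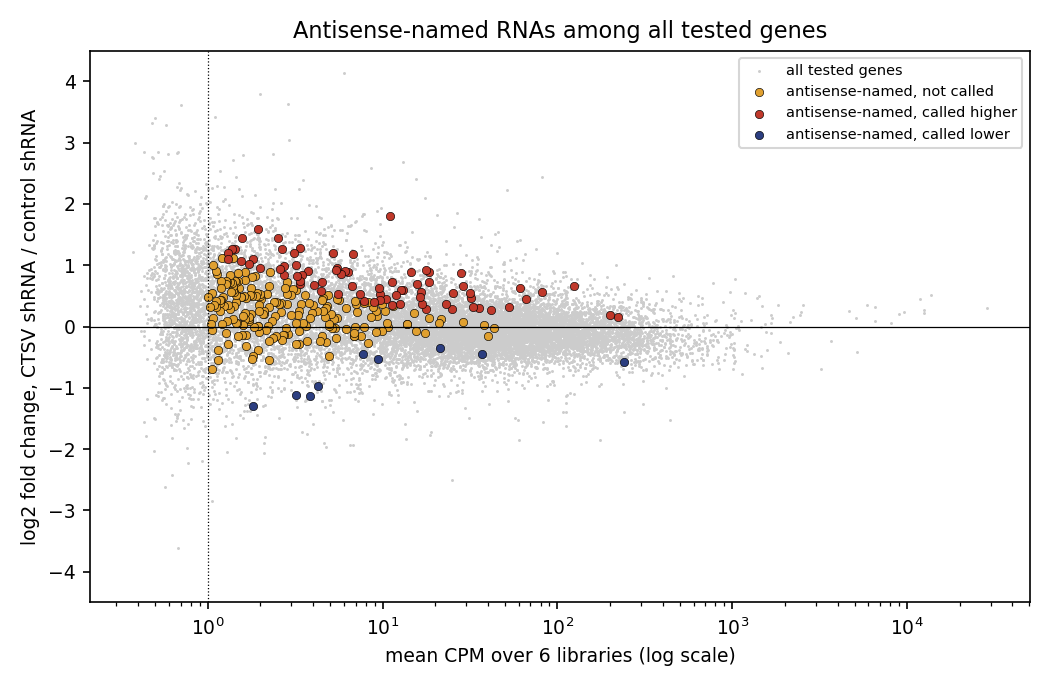
Each point is a gene, with its mean CPM over the 6 libraries on a log x axis and its log2 fold change, CTSV shRNA over control shRNA, on the y axis. Of the 281 antisense-named RNAs (large points), 75 called higher lie above 0 across the range and 9 called lower lie below it, with all tested genes in grey.

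Rises were more frequent than among all tested genes at 5 CPM and above, and not below 5 CPM. Of the 53 antisense-named RNAs with a mean of 10 CPM or more, 34 rose and 3 fell, or 64.2% and 5.66%, while among all 9440 tested genes of that level 19.8% rose and 33.4% fell. From 5 to 10 CPM, 15 of 46 rose (32.6%), against 25.7% of all tested genes. From 2 to 5 CPM, 17 of 83 rose (20.5%), against 20.5% of all tested genes. From 1 to 2 CPM, 9 of 99 rose (9.09%), against 13.1%. The median log2 fold change of the set was 0.33 at 10 CPM or more, where that of all tested genes was -0.07. From 5 to 10 CPM it was 0.31, where that of all tested genes was 0.14, and from 2 to 5 CPM 0.30 against 0.25. From 1 to 2 CPM it was 0.48, where that of all tested genes was 0.32. From 5 to 10 CPM 4.35% of the set fell, against 10.5% of all tested genes. From 2 to 5 CPM 3 RNAs fell (3.61%), against 5.11%, and from 1 to 2 CPM 1 fell (1.01%), against 1.92%. The shares that fell in these 2 lowest ranges were thus near those of all tested genes. These shares are descriptions of the genes in these libraries, with no test between them.

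**Figure D2:**
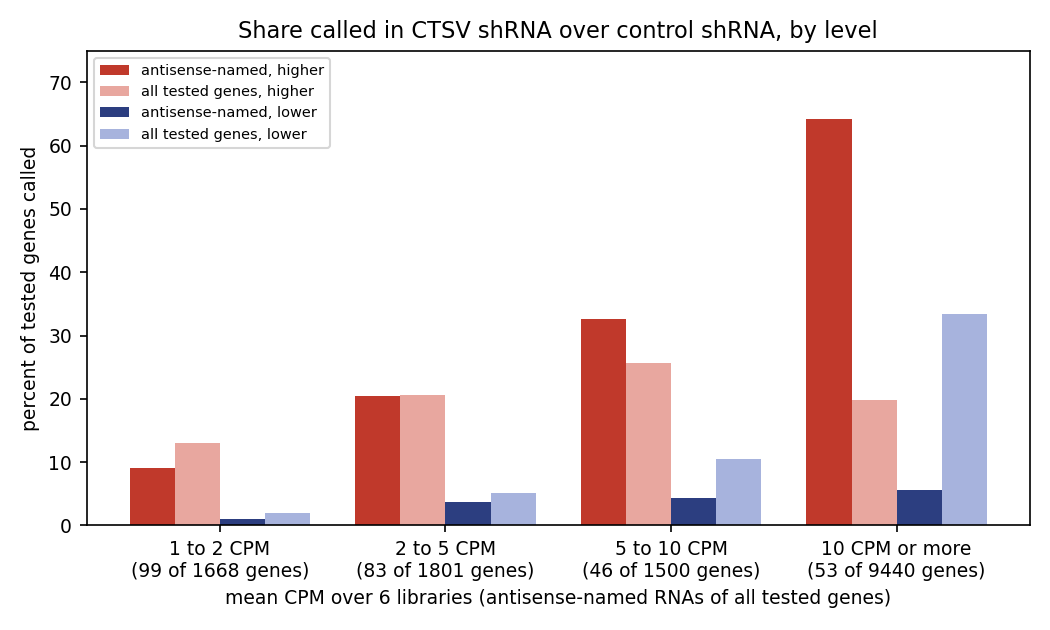
Bars give the percent of tested genes called higher or lower (y axis) in 4 ranges of mean CPM (x axis), dark for antisense-named RNAs and light for all tested genes. At 10 CPM or more, 64.2% of the antisense-named RNAs were called higher against 19.8% of all tested genes, while from 2 to 5 CPM both shares were 20.5%.

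The RNA with the most reads was one of the few that fell. LRRC75A-AS1 (ENSG00000175061, chromosome 17 from 16438822 to 16478678, plus strand) is a host gene that carries the snoRNA genes SNORD49A, SNORD49B and SNORD65 in its body. It was at 204.0, 194.7 and 178.6 CPM with the CTSV shRNA, against 279.3, 307.1 and 275.5 CPM with the control shRNA. All CTSV shRNA libraries lay below all controls, with a log2 fold change of -0.58 (SE 0.0528, edgeR adjusted p = 3.3e-11). Its sense partner LRRC75A was at 2.18, 2.24 and 1.65 CPM with the CTSV shRNA, against 1.63, 0.722 and 1.62 CPM with the control shRNA, and was not called (0.61, adjusted p = 0.233). The other 3 RNAs of the set with a snoRNA gene on their strand were TMEM161B-AS1, which rose by 0.72, and GPRC5D-AS1 (-0.04) and UBA6-AS1 (0.25), which were not called.

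The other RNAs with many reads rose by less than 2-fold. PSMA3-AS1 (ENSG00000257621, chromosome 14 from 58265365 to 58298134, minus strand) runs across the 3′ part of PSMA3, a core subunit gene of the proteasome, and shares no exon base with it. It was at 149.0, 153.8 and 155.4 CPM with the CTSV shRNA, against 96.3, 98.6 and 93.8 CPM with the control shRNA. The groups were far apart for their spread, and the log2 fold change of 0.67 (SE 0.0541) had the smallest edgeR adjusted p of the set, 1.9e-12. PSMA3 averaged 160.7 ± 5.2 CPM with the CTSV shRNA and 166.9 ± 2.82 CPM with the control shRNA (SD, n = 3 each) and was not called (-0.05, edgeR adjusted p = 0.422). GABPB1-AS1 was at 101.2, 90.1 and 99.4 CPM with the CTSV shRNA, against 66.9, 60.3 and 69.5 CPM with the control shRNA, a rise of 0.56 on the log2 scale. THUMPD3-AS1, which overlaps a tRNA methyltransferase gene, was at 67.8, 78.7 and 82.0 CPM with the CTSV shRNA, against 53.8, 58.6 and 55.7 CPM with the control shRNA, a rise of 0.44. In both, each CTSV shRNA library was above each control.

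Small rises were called in FGD5-AS1 and OIP5-AS1. FGD5-AS1 was at 224.5, 235.2 and 243.4 CPM with the CTSV shRNA and 205.1, 215.5 and 212.2 CPM with the control shRNA (log2 fold change 0.15, edgeR adjusted p = 0.0117). OIP5-AS1, the human counterpart of the Cyrano RNA that in mice promotes decay of the microRNA miR-7, was at 211.9, 208.8 and 221.0 CPM with the CTSV shRNA and 191.0, 183.7 and 188.8 CPM with the control shRNA (0.19, edgeR adjusted p = 0.0021). The groups did not overlap in either. With the length and GC correction neither was called, with log2 fold changes of 0.07 (adjusted p = 0.212) and 0.04 (adjusted p = 0.461), where the median of all tested genes also moved by -0.09. FGD5-AS1 was also not called without CTSV shRNA replicate 3 (adjusted p = 0.0718) or without control replicate 1 (adjusted p = 0.0762).

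Among the largest rises, 7 were in RNAs of 1 to 4 CPM. SLC9A3-AS1, beside the gene of an intestinal and renal sodium-proton exchanger, was at 5.08, 4.79 and 4.46 CPM with the CTSV shRNA, against 1.4, 1.93 and 2.55 CPM with the control shRNA. It rose by 1.29 on the log2 scale, and SLC9A3 itself stayed below 1 CPM and was not tested. PPP1R26-AS1 was at 2.72, 3.21 and 2.7 CPM with the CTSV shRNA, against 0.785, 1.204 and 0.872 CPM with the control shRNA, a rise of 1.59. FAM13A-AS1 was at 3.81, 4.06 and 3.19 CPM with the CTSV shRNA, against 0.785, 1.93 and 1.37 CPM with the control shRNA, a rise of 1.44. PSMD6-AS2, which overlaps a gene of the proteasome's regulatory particle, was at 4.11, 3.03 and 4.02 CPM with the CTSV shRNA, against 1.51, 1.26 and 1.87 CPM with the control shRNA, a rise of 1.26. Groups did not overlap in any of these 4, as the rule that names them requires. PSMD6 (-0.06) and PPP1R26 (0.34) were not called.

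SSBP3-AS1 (1.45), TMEM220-AS1 (1.27) and FSIP2-AS1 (1.27) also rose, and each lost its call with some libraries left out, at log2 fold changes that stayed above 0. SSBP3-AS1 was at 1.39, 2.42 and 3.03 CPM with the CTSV shRNA, against 0.729, 1.08 and 0.685 CPM with the control shRNA. SSBP3-AS1 was not called without CTSV shRNA replicate 3 (log2 fold change 1.19, edgeR adjusted p = 0.0655). TMEM220-AS1 was not called without CTSV shRNA replicate 2 or 3 (adjusted p = 0.1 and 0.0787) or control replicate 1 or 3 (0.127 and 0.0832), with log2 fold changes of 1.15, 1.19, 0.97 and 1.12 in these fits. FSIP2-AS1 was not called without CTSV shRNA replicate 3 (log2 fold change 0.90, adjusted p = 0.203), control replicate 1 (0.95, adjusted p = 0.121) or with the length and GC correction (0.93, adjusted p = 0.0845).

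Among the 9 RNAs that fell, the largest fall was in TGFB2-AS1 (ENSG00000232480, chromosome 1 from 218344196 to 218345678, minus strand). It was at 1.45, 0.545 and 1.16 CPM with the CTSV shRNA, against 3.2, 1.99 and 2.62 CPM with the control shRNA. The groups did not overlap, and the log2 fold change was -1.30 (SE 0.398, edgeR adjusted p = 0.0082). Without CTSV shRNA replicate 2 the adjusted p was 0.0555 and without control replicate 1 it was 0.0603. The neighbours DLGAP1-AS2 and DLGAP1-AS1, both inside DLGAP1, a gene of the neuronal postsynaptic scaffold, fell together. DLGAP1-AS2 was at 2.54, 2.61 and 2.09 CPM with the CTSV shRNA, against 5.49, 5.84 and 4.55 CPM with the control shRNA (-1.14), and DLGAP1-AS1 at 2.3, 1.94 and 1.82 CPM with the CTSV shRNA, against 4.15, 4.69 and 4.3 CPM with the control shRNA (-1.12). DLGAP1 was below 1 CPM in each library and was not tested.

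TRIM52-AS1 had a log2 fold change of -0.97, EGFR-AS1 -0.53, GATA2-AS1 -0.45, NCBP2-AS2 -0.44 and MAPKAPK5-AS1 -0.34. NCBP2-AS2, whose 5′ end is 26 bases from that of the cap-binding subunit gene NCBP2, was at 7.08, 7.21 and 5.39 CPM with the CTSV shRNA, against 8.02, 10.4 and 8.29 CPM with the control shRNA (edgeR adjusted p = 0.0417). It was not called without CTSV shRNA replicate 3 (adjusted p = 0.212), control replicate 2 (0.204), with the length and GC correction (0.0601) or by DESeq2 (0.0663). EGFR-AS1 was not called without control replicate 1 (adjusted p = 0.0828), nor MAPKAPK5-AS1 without CTSV shRNA replicate 3 (0.0696).

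**Figure D3:**
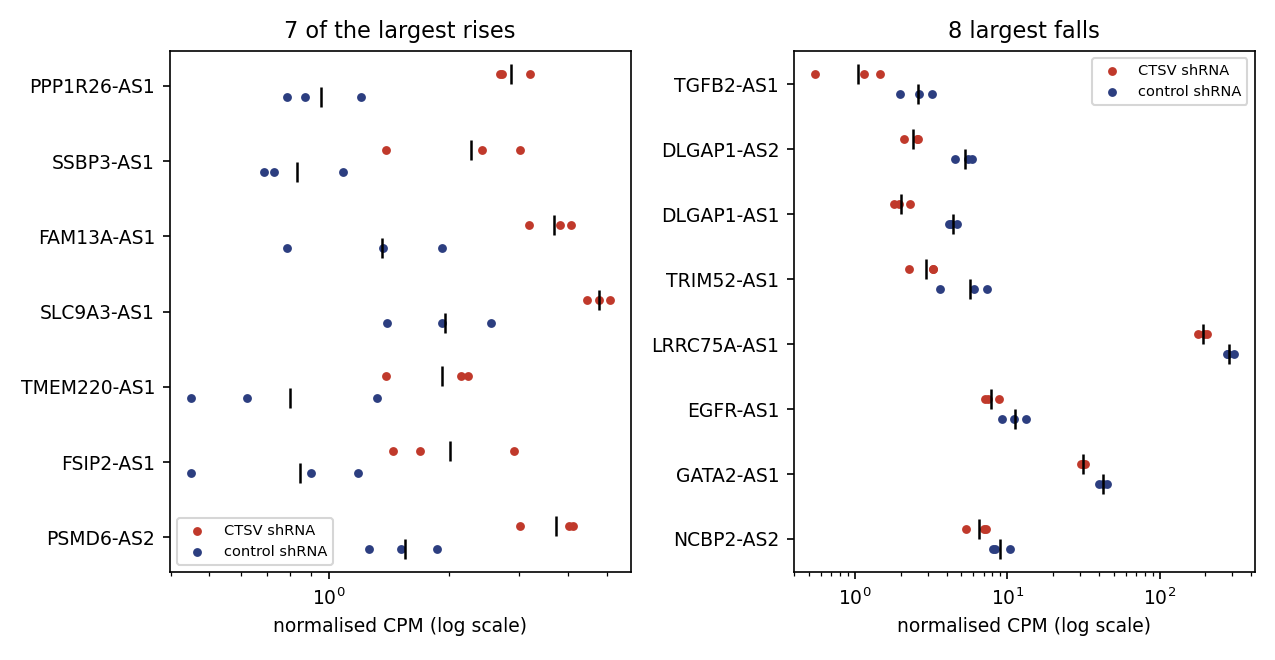
Points are the normalised CPM (log x axis) of each library for 7 of the largest rises (left) and 8 largest falls (right) among antisense-named RNAs, red for the CTSV shRNA and blue for the control shRNA, with black ticks at the means (n = 3 each). SLC9A3-AS1 lies at 4.46 to 5.08 CPM with the CTSV shRNA and 1.4 to 2.55 CPM with the control shRNA, and LRRC75A-AS1 at 178.6 to 204.0 CPM with the CTSV shRNA and 275.5 to 307.1 CPM with the control shRNA.

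The sense partners as a group did not move the way the antisense-named RNAs did. Of 267 partner genes, 261 were tested, and 57 rose (21.8%), 60 fell (23.0%) and 144 were not called, with a median log2 fold change of 0.01. These shares are near the 19.7% and 23.8% of all tested genes with a mean of at least 1 CPM. The partners also had more reads, with a median level of 36.6 CPM against 3.19 CPM for the set. Among all tested genes the median log2 fold change was 0.25 from 2 to 5 CPM and -0.07 at 10 CPM or more. The part of level in the difference between set and partners was not tested. Summed, the partners held 22631 ± 278.1 CPM with the CTSV shRNA and 22395 ± 262.7 CPM with the control shRNA (SD, n = 3 each), a difference within their spread. In 265 pairs both genes were tested. Both rose in 21 pairs and both fell in 2, while in 8 the antisense RNA rose and its partner fell, and in 2 the reverse was found. The antisense RNA alone was called in 44 pairs, 41 of them higher, the partner alone in 85 pairs, and neither in 103.

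Across the 265 pairs the log2 fold changes of antisense and sense had a Pearson r of 0.19 and a Spearman rho of 0.14, a description over pairs that share the same 6 libraries. Their signs were equal in 133 pairs. The antisense to sense ratio was higher in all CTSV shRNA libraries than in all controls in 86 pairs and lower in 22, and overlapped in 157. Over all 335 pairs of the table with both genes tested, the shares were 29.6% and 7.46%. These 335 pairs include the 265 and those below the CPM limit, so they are not a separate background. The median difference of the log2 ratio was 0.27. The antisense RNAs and their partners differ in level, and its part in these ratios was not tested. With 3 libraries against 3 an exact permutation test cannot go below p = 0.1 for a single pair. Per kilobase of exon the antisense RNA was at a median of 24.4% of its partner's level, and 56 of 263 were above their partner.

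**Figure D4:**
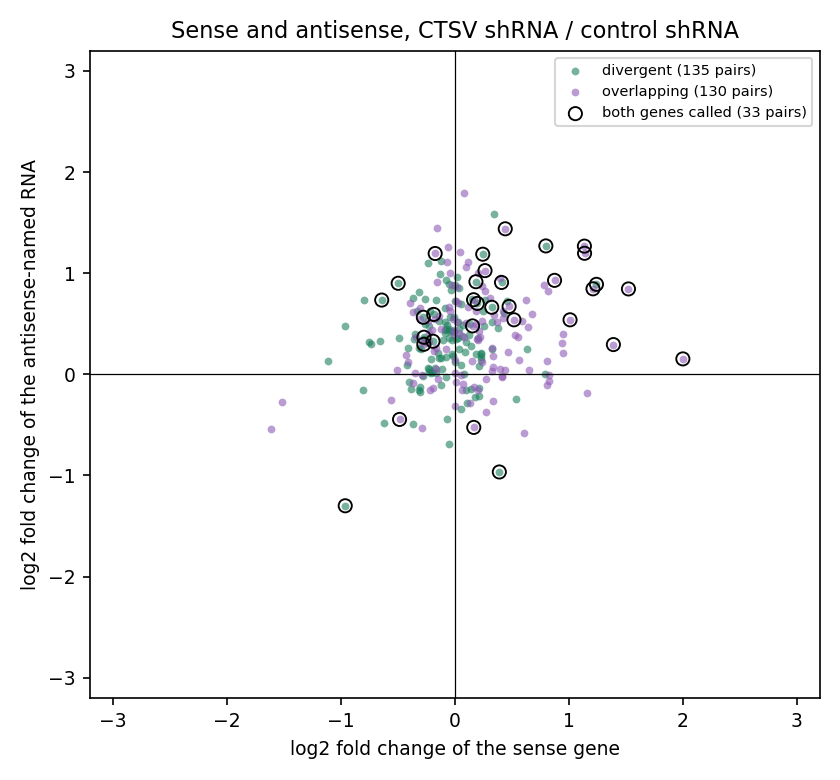
Each point is a pair, with the log2 fold change of the sense gene on the x axis and of the antisense-named RNA on the y axis, CTSV shRNA over control shRNA. The 135 divergent and 130 overlapping pairs lie mostly above the horizontal 0 line and on both sides of the vertical one, and circles mark the 33 pairs with both genes called.

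Among pairs that changed together, SATB1 and SATB1-AS1 ranked first by the larger of their adjusted p. SATB1, a chromatin organiser gene, was at 61.4, 65.7 and 62.2 CPM with the CTSV shRNA, against 26.5, 27.3 and 26.2 CPM with the control shRNA, a rise of 1.24 (SE 0.0789, edgeR adjusted p = 2.9e-15). SATB1-AS1 was at 19.7, 20.6 and 16.4 CPM with the CTSV shRNA, against 9.53, 10.8 and 10.3 CPM with the control shRNA, a rise of 0.89 (SE 0.129, adjusted p = 6.6e-07). Both genes were separated between groups, and the antisense to sense log2 ratio had a difference of -0.37, lower in each CTSV shRNA library. Their 5′ ends lie 564 bases apart and no exon base is shared. SLC44A3-AS1 was at 7.44, 7.76 and 6.6 CPM with the CTSV shRNA, against 3.76, 2.05 and 3.68 CPM with the control shRNA, a rise of 1.197, and SLC44A3, a choline transporter-like gene, rose by 1.14. For this pair the antisense to sense ratio overlapped between groups.

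The endoderm transcription factor gene GATA6 was at 20.9, 24.4 and 26.8 CPM with the CTSV shRNA, against 18.1, 17.0 and 19.4 CPM with the control shRNA, a rise of 0.41 (edgeR adjusted p = 0.0032). GATA6-AS1 was at 7.98, 8.06 and 7.76 CPM with the CTSV shRNA, against 4.93, 4.21 and 3.49 CPM with the control shRNA, a rise of 0.91 (adjusted p = 0.00022). Neither gene had overlapping groups, and the antisense to sense ratio was higher in each CTSV shRNA library. The thyroid hormone receptor pair behaved alike in sign, with THRB-AS1 up by 1.19 and THRB by 0.24. FAM13A-AS1 and FAM13A rose by 1.44 and 0.44, DBH-AS1 and the dopamine beta-hydroxylase gene DBH by 0.93 and 0.87, and C1RL-AS1 and the complement-related protease gene C1RL by 0.66 and 0.32.

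In 2 pairs both genes fell. GATA2-AS1 was at 32.3, 31.3 and 30.3 CPM with the CTSV shRNA, against 42.6, 39.96 and 45.4 CPM with the control shRNA (log2 fold change -0.45, SE 0.0849). GATA2, a zinc finger transcription factor gene, was at 32.6, 34.9 and 30.5 CPM with the CTSV shRNA, against 45.2, 52.3 and 39.7 CPM with the control shRNA (-0.49, SE 0.0914). TGFB2, the gene of a TGF-beta ligand, was at 16.1, 13.0 and 16.7 CPM with the CTSV shRNA, against 32.0, 30.8 and 26.6 CPM with the control shRNA (-0.96, SE 0.112), beside the fall of TGFB2-AS1. The groups of each gene were apart, while the antisense to sense ratio overlapped in both pairs. The count of pairs called in the same direction was 23, and it was 15 without CTSV shRNA replicate 3 and 13 without control replicate 1.

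In 10 pairs the genes were called in opposite directions, most of them with a rise of the antisense RNA. Most called RNAs of the whole set also rose, 75 against 9 that fell. TPT1, the gene of translationally controlled tumour protein, was at 667.9, 668.4 and 636.8 CPM with the CTSV shRNA, against 733.9, 780.1 and 733.0 CPM with the control shRNA (-0.19, SE 0.042). TPT1-AS1, from the start region printed above, was at 16.3, 13.6 and 17.1 CPM with the CTSV shRNA, against 9.08, 11.9 and 10.3 CPM with the control shRNA (0.59, SE 0.137). The groups were apart for both, and per kilobase the antisense RNA was at 1.3% of TPT1. TRIM52, a RING-type ubiquitin ligase gene, and TRIM52-AS1 differed the other way. TRIM52-AS1 was at 3.27, 3.27 and 2.26 CPM with the CTSV shRNA, against 7.4, 6.08 and 3.61 CPM with the control shRNA (-0.97, SE 0.255). TRIM52 was at 23.5, 26.1 and 22.3 CPM with the CTSV shRNA, against 15.7, 20.3 and 19.0 CPM with the control shRNA (0.39, SE 0.112). TRIM52 was not called without CTSV shRNA replicate 2 (edgeR adjusted p = 0.051) or control replicate 1 (0.0656).

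SGMS1-AS1 rose by 0.90 and the sphingomyelin synthase gene SGMS1 had a log2 fold change of -0.50. GABPB1-AS1 rose by 0.56 and GABPB1, for a subunit of the ETS factor GABP, had -0.28. The fall of GABPB1 was not called without CTSV shRNA replicate 3 (edgeR adjusted p = 0.0515) or control replicate 1 (0.0674). WAC-AS1 (0.33) and WAC (-0.19) also differed in sign, as did PCBP1-AS1 (0.30) and PCBP1 (-0.27), the gene of a poly(C)-binding protein. WAC-AS1 was not called without CTSV shRNA replicate 1 (adjusted p = 0.0958), nor PCBP1-AS1 without control replicate 3 (0.0569). EGFR-AS1 had -0.53 and the receptor gene EGFR 0.16, with EGFR at 501.4, 516.7 and 564.1 CPM with the CTSV shRNA, against 476.5, 432.9 and 503.2 CPM with the control shRNA, so that its groups overlapped. EGFR was not called without CTSV shRNA replicate 3 (adjusted p = 0.082), nor without control replicate 2 (0.0847), where its log2 fold change was 0.10, nor with the length and GC correction (0.8) or all deposited entries kept (0.0692).

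**Figure D5:**
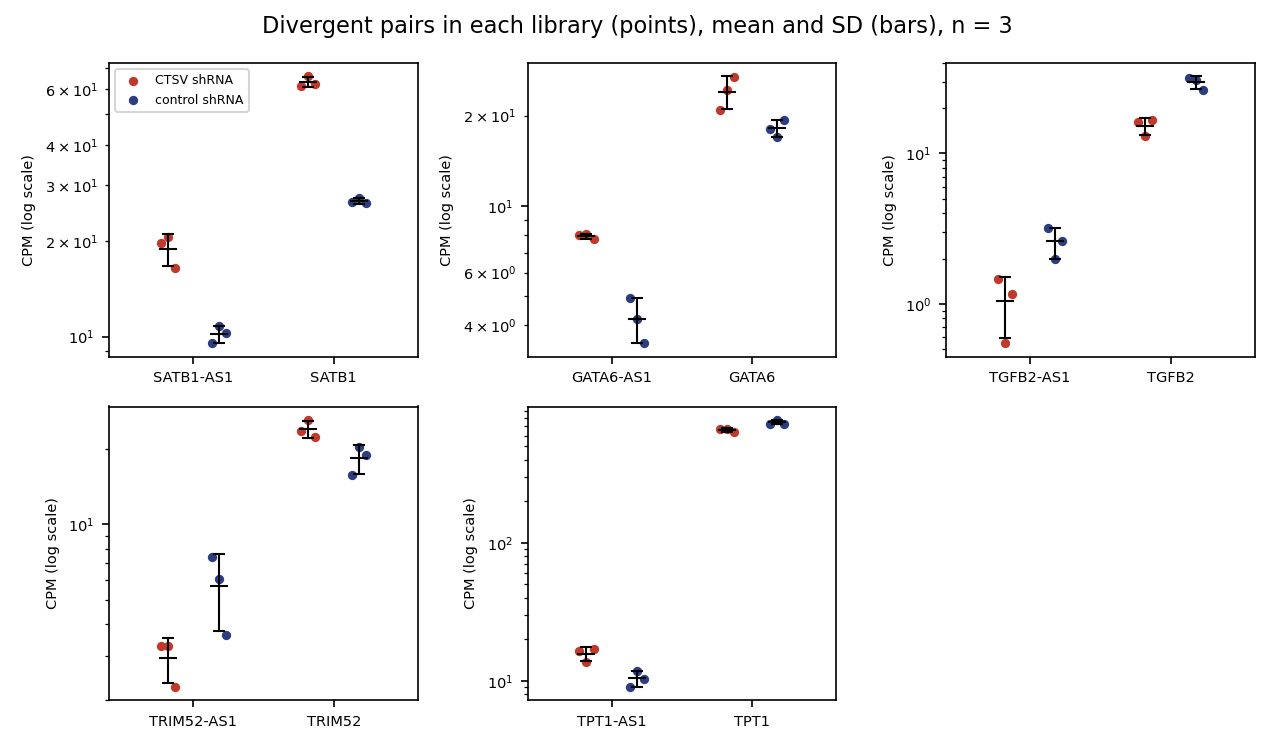
Each panel is a divergent pair, with points for the normalised CPM of each library (log y axis), red for the CTSV shRNA and blue for the control shRNA, and bars for the mean and SD (n = 3). SATB1 and GATA6 rose with their antisense RNAs, TGFB2 fell with its own, and in the TRIM52 and TPT1 pairs the genes moved in opposite directions.

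Of the 136 divergent RNAs, 28 rose (20.6%) and 4 fell (2.94%), with a median log2 fold change of 0.35. Of the 136 overlapping ones, 44 rose (32.4%) and 5 fell (3.68%), with a median of 0.39. Among all tested genes with a mean of at least 1 CPM 19.7% rose and 23.8% fell, so the share of divergent RNAs that rose was near that of all genes. The partners of divergent RNAs rose in 19 and fell in 42 of 135 (31.1%), with a median of -0.06. Those of overlapping RNAs rose in 39 (30.2%) and fell in 18 of 129, with a median of 0.15. The median level of all partners was 36.6 CPM. Of all tested genes at 10 CPM or more, 19.8% rose and 33.4% fell, with a median of -0.07. The share of divergent partners that fell was near that 33.4%, while the share that rose was lower. Overlapping partners rose more often and fell less often than genes of that level. The part of level in these counts was not tested. The antisense to sense ratio was higher without overlap between groups in 54 of 135 divergent and 32 of 130 overlapping pairs. Over the 335 pairs of the table, which include these, the share was 29.6%. These classes were not tested against each other.

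No source used here says whether reads were counted by strand, and without strand a read from shared bases cannot be given to one gene. Exon bases were shared with the sense partner in 173 of 270 RNAs with both genes in GENCODE v29, at a median of 275 bases. The 78 RNAs that share no exon base with any gene on the other strand had 11 that rose (14.1%) and 6 that fell (7.69%), and a median log2 fold change of 0.23. The 201 that do share such bases had 64 that rose (31.8%) and 3 that fell (1.49%), and a median of 0.39. Among all tested genes with a mean of at least 1 CPM 19.7% rose and 23.8% fell. The share that rose was above that of all genes in the RNAs that share exon bases and not in those that share none. The share that fell was below 23.8% in both, but only 11 of the 78 reached 10 CPM, so the levels are not alike. Of all tested genes, 1.92% fell from 1 to 2 CPM, 5.11% from 2 to 5 CPM and 10.5% from 5 to 10 CPM, and 33.4% at 10 CPM or more. At 10 CPM or more, 4 of 11 without shared exon bases rose (36.4%) and 1 fell, and 30 of 42 with them rose (71.4%) and 2 fell, against 19.8% higher among all tested genes of that level. The r between antisense and sense changes was 0.12 over 169 pairs that share exon bases and 0.27 over 94 that do not. Of the 169 pairs, 17 were called in the same direction, all of them higher. Of the 94, 6 were called in the same direction, 4 higher and 2 lower. The antisense RNA rose and its partner fell in 6 of the 169 and 2 of the 94, and the reverse was found in 1 of each. The part of shared bases in these calls was not tested. SATB1-AS1, GATA2-AS1, both DLGAP1 RNAs, TGFB2-AS1 and TRIM52-AS1 share none.

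RefSeq start windows were found for 176 of the 281. They had a median GC content of 63.3% and 22.5 CpG dinucleotides per 300 bases, against 58.3% and 14 over all 27305 windows of that length. Those of all LINC-named RNAs had 47.7% and 4. The letters GGGCGG, a GC box, on either strand were in 56.2% of the windows of the set and 44.6% of all windows, TATAAA in 5.68% and 12.0%, and CCAAT in 37.5% and 35.7%. No overlap between these 3 motifs was removed. The windows of the set belong to RNAs of at least 1 CPM, while all windows and the LINC-named ones had no limit on level. The part of level in these contrasts was not tested. Divergent RNAs had CCAAT in 25.6% of 78 windows and overlapping ones in 46.9% of 96. For 73 divergent pairs both genes had a RefSeq start, and in 24 of them the starts lay within 250 bases.

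Of 27 antisense-named RNAs with published studies in the table, 26 were tested. Of these 12 rose (46.2%), 3 fell (11.5%) and 11 were not called, with a median log2 fold change of 0.28. Among all tested genes with a mean of at least 1 CPM 19.7% rose and 23.8% fell, and in the whole set 26.7% and 3.2%. Most of the 12 were at 10 CPM or more, where 64.2% of the set rose. Besides those described, THAP9-AS1 was at 36.7, 38.1 and 37.1 CPM with the CTSV shRNA, against 27.1, 25.4 and 28.1 CPM with the control shRNA, a rise of 0.47. MCM3AP-AS1 was at 17.4, 19.2 and 20.9 CPM with the CTSV shRNA, against 14.6, 14.2 and 12.5 CPM with the control shRNA, a rise of 0.48. TP73-AS1 rose by 0.27, TTN-AS1 by 0.54 and NUTM2A-AS1 by 0.29. TP73-AS1 was not called without CTSV shRNA replicate 2 (edgeR adjusted p = 0.0881) or control replicate 1 (0.0735), nor with the length and GC correction (0.115). TTN-AS1 was not called without CTSV shRNA replicate 3 (0.124) or control replicate 3 (0.0522), nor without control replicate 2 (0.144), where its log2 fold change was 0.36. NUTM2A-AS1 (adjusted p = 0.0459) lost its call without any CTSV shRNA replicate (0.0531 to 0.206) and without control replicate 2 or 3 (0.0772 and 0.229), and with DESeq2 (0.0709), the length and GC correction (0.13), no filter (0.0915) and all entries kept (0.0598). ZEB1-AS1 (0.43), TMPO-AS1 (0.53), ARHGAP5-AS1 (0.34), SBF2-AS1 (0.44), DNAJC3-AS1 (0.25), FOXD2-AS1 (0.09) and CTBP1-AS2 (0.03) were not called, nor were CDKN2B-AS1 (-0.28), PXN-AS1 (-0.13), SPRY4-AS1 (-0.16) and ZNF667-AS1 (-0.55).

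Genes of the machinery that makes and removes such RNAs changed by less than 2-fold. Of 24 genes of the nuclear exosome and its adaptors, 8 fell, 1 rose and 15 were not called, with a median log2 fold change of -0.11. EXOSC5, a core exosome subunit gene, was at 9.56, 9.21 and 8.53 CPM with the CTSV shRNA, against 14.9, 17.9 and 16.2 CPM with the control shRNA (-0.85). The cofactor gene MPHOSPH6 (-0.45) and the nuclease gene DIS3 (-0.23) also fell, and ZFC3H1, which links polyadenylated RNA to the exosome, rose by 0.28. The groups did not overlap in these 4. Among 14 Integrator genes, 2 rose, INTS3 (0.39) and INTS11 (0.16), and 2 fell, INTS13 (-0.37) and INTS6 (-0.22). INTS11 was not called in 4 of the fits that leave out a library, those with CTSV shRNA replicate 1 (edgeR adjusted p = 0.0778) or 2 (0.17) or control replicate 1 (0.113) or 3 (0.0656) left out, nor with the length and GC correction (0.0885), no filter (0.0892) or all entries kept (0.0702).

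Of 22 cleavage, polyadenylation and termination genes, 6 rose and 6 fell, among them CPSF7 (0.30), the poly(A) polymerase gene PAPOLA (-0.29), CLP1 (-0.39) and CPSF2 (-0.28). Of 20 genes of nonsense-mediated decay, 2 rose (10.0%) and 5 fell, with EIF4A3 (-0.43), MAGOH (-0.40) and MAGOHB (-0.35), of the exon junction complex, and the decapping gene DCP1A (-0.41) among the falls. MAGOH was not called without control replicate 1 (edgeR adjusted p = 0.0736). Of 18 tested genes that bind, edit or sense double-stranded RNA, 3 rose and 5 fell. The rises were in the cytoplasmic RNA sensor genes IFIH1 (0.87) and DDX58 (0.70) and in DGCR8, of the microRNA processor (0.51). IFIH1 was at 7.86, 8.97 and 8.75 CPM with the CTSV shRNA, against 4.71, 3.79 and 5.54 CPM with the control shRNA. DDX58 was at 23.1, 18.2 and 23.7 CPM with the CTSV shRNA, against 14.7, 13.2 and 12.0 CPM with the control shRNA. Neither gene's groups overlapped. The falls include the Staufen gene STAU1 (-0.33), MAVS, the adaptor of both sensors (-0.32), ILF2 (-0.28) and the RNA editing gene ADAR (-0.14). The shares that rose and fell were 4.17% and 33.3% for the exosome list and 14.3% and 14.3% for Integrator. They were 27.3% and 27.3% for cleavage and termination, and 16.7% and 27.8% for double-stranded RNA genes. Among tested genes of at least 1 CPM 19.7% rose and 23.8% fell. Most genes of these lists were at 10 CPM or more, where 19.8% of all tested genes rose and 33.4% fell. The share of the exosome list that fell was thus near that of all tested genes of that level, while the share that rose was lower. The part of these lists in the changes of the antisense-named RNAs was not tested.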

How the data were processed

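The authors deposited one table of raw counts per gene for the 6 libraries, beside their own log2 fold changes and p-values, which were not used. HISAT2, StringTie, SAMtools and hg38 are listed in the submitters' processing notes; what made the counts, from which annotation and with which strand setting, no source used here gives. The labels' protocols name TRIzol extraction and an NEBNext Ultra II mRNA library kit. Of 28915 entries, 1521 copies under a repeated name were removed, leaving 27394 names. Coordinates are the table's, and 96.9% of the names found in GENCODE v29 have the same start and end there. The member rule used CPM from column totals. CPM in the text are normalised with TMM. Differences were tested with edgeR 4.0.16 in R 4.3.3 (glmQLFit, glmQLFTest, filterByExpr, Benjamini-Hochberg over all 15968 tested names, adjusted p under 0.05), CTSV shRNA over control shRNA. The biological coefficient of variation was 6.87%, and the test was checked on simulated data. Log2 ratios used a pseudocount of 0.5 CPM. Alternatives were RLE factors, other filters, a replicate block, DESeq2 1.42.0, all entries kept, length and GC offsets, a 2-fold limit, a 2 CPM limit, and each library left out. Named RNAs are CTSV, the 8 largest rises and falls whose groups do not overlap, the 6 highest levels, up to 8 pairs called in each relation, the 3 on either side of the CPM limit, the studied list and up to 4 called genes of each other list. Some of these results are not reported here. IFIH1, DDX58, ADAR, the genes beside the named ones and the RNAs with snoRNA genes were added after their values were seen. Members and lists were chosen with earlier results of these data known.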

Additional observations from a re-analysis of the deposited data

How the results depend on the processing

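Of 1105 comparisons of the 85 named genes other than CTSV with their alternatives, 1052 kept their direction and side of the threshold, 53 lost the call and 0 reversed; 66 genes kept theirs throughout. CTSV had log2 fold changes from -1.40 to -1.30 with a library left out. Across all 14 fits, 38 rises out of 75 and 5 falls out of 9 were called each time. With a library left out, rises numbered 59 to 69, falls 7 to 10, partners 50 to 53 higher and 52 to 58 lower, pairs in the same direction 13 to 22 and opposite pairs 8 to 10. The median log2 fold change was 0.33 to 0.38 in these fits, 0.33 with all entries kept, 0.27 with length and GC offsets and 0.32 at a mean of at least 2 CPM. A 2-fold limit left 16 rises, 3 falls, 8 partners higher and 3 lower, 2 pairs in the same direction and 0 opposite. At 2 CPM, 37 partners rose. Among RNAs with no opposite-strand exon overlap, chosen after seeing the data, 11 rose, their partners rose in 12 and fell in 22, 5 pairs were called in the same direction and 2 were opposite, and the median was 0.23. With 500 bases as the limit, 79 were divergent. The replicate block gave 80 rises and 9 falls, against 75 and 9. Same-numbered libraries had correlations of -0.0137, 0.00731 and 0.0336 in their deviations from the group means. These values give no sign that the numbers pair the samples, but cannot exclude it. The cause of these differences was not tested, other than fewer genes or samples where the alternative has fewer. The median RNA of the set had 45 to 60 counts per library.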
